A study of Mus musculus with 11 samples.

Results

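Interferon-stimulated genes are the genes that a cell switches on when interferon reaches its receptors, and 38 of them, named in a fixed list of interferon response genes, were followed through RNA-seq data of 11 mouse mammary libraries. All 38 symbols matched a single Entrez gene of the deposited tables, which hold 27179 genes, and all 38 passed the filter on low counts (over 0.5 CPM, the reads of a gene scaled to the size of its library, in at least 3 libraries) together with 15422 genes in all. Of the 38, 4 genes (Ifit3, Oas2, Oas3 and Mx1) exceeded 0.5 CPM in none of the 3 MaSC/basal libraries, so they entered through the libraries in which they were higher.

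MaSC/basal cells (CD24+CD29hi, enriched for mammary stem cells), luminal progenitor-enriched cells (LP, CD24+CD29loCD61+) and mature luminal-enriched cells (ML, CD24+CD29loCD61-) had been sorted from mammary glands of wild type FVB/N virgin females, after exclusion of CD31, TER-119 and CD45 positive cells, with 3 libraries per population. The labels give an age of 8 weeks, and the study's methods a slightly wider one. A further library came from mammosphere cells, which are MaSC/basal cells of the same kind of mice grown for a week without attachment, and another from Comma D beta cells, an established mammary line that the labels describe as CommaD-βGeo, Balb/c, wild type and of mid-pregnancy origin. The library of MaSC/basal replicate 1 carries p53 in its submitted name although its labels say wild type, and the mammosphere name may combine more than 1 culture. Libraries were prepared in 3 batches, of which batch 1 (replicate 1 of each population and the mammosphere library) used the first version of the TruSeq RNA kit according to the labels, batch 2 held MaSC/basal replicates 2a and 2b and replicate 2 of LP and ML, and batch 3 held replicate 3 of LP and ML and the Comma D beta library. Counted reads per library ranged from 19958838 to 75795034. The sorted populations carried their markers: 6 basal genes (Krt5, Krt14, Acta2, Trp63, Myh11 and Oxtr) summed to between 15516 and 21725 CPM in MaSC/basal cells, to between 88.9 and 209.8 CPM in LP cells and to between 70.3 and 358 CPM in ML cells, the highest ML value being that of replicate 3, where Krt14 reached 110.1 CPM against 23.1 and 27.3 CPM in replicates 1 and 2. Replicate 2 of ML had the most of the progenitor gene Elf5, at 137 CPM against 87.0 and 61.7 CPM in replicates 1 and 3. The Comma D beta library had little luminal keratin (Krt8 at 16.4 CPM).

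Type I and type III interferons bind receptors whose kinases activate a complex that holds STAT2 and IRF9 and binds the interferon-stimulated response element (ISRE) in the promoters of its targets. Type II interferon acts through the gamma-activated sequence (GAS). The targets include sensors of viral RNA, enzymes that degrade or edit viral nucleic acid, proteins that trap viruses at membranes, and subunits of the immunoproteasome, which prepares peptides for display to T cells. Many of these genes also have a basal level in cells that have met no virus, so their level in resting epithelium differs between tissues and cell types.

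To show the promoter letters through which this pathway is known to act, RefSeq promoter windows of GRCm38.p6 (250 bases before to 50 bases after a gene's start) were searched for the ISRE core GAAANNGAAA on both strands and for the GAS letters TTCNNNGAA, which read the same on both strands. Windows were given for 29 of the 38 members, and Oas2, Usp18, Dhx58, Mx1, Mx2, Rtp4, Zbp1, Parp9 and Parp14 had no entry. The ISRE core was found in 14 of the 29 (48.3%), against 3.99% of the 27025 genes with a window, and the GAS letters in 9 (31.0%), against 9.55% of those genes. Oas1a, Bst2 and Ifitm3 held both motifs, and 9 of the 29 held neither. The stretches below were chosen because their genes had the main differences between populations or cultures described further on, or because they show the motif in genes that moved the other way. They are written in the direction of transcription, with the ISRE core in capitals. Neighbouring cores can share 4 bases, as they do in Isg15, Oas1a and Bst2. The start of a window can lie inside the listed span of its gene. The stretches of Ifit3 (span from 34583119) and Ifitm2 (span to 140959686) therefore lie within the gene, and that of Oas1a (span to 120907544) reaches into it.
Isg15 (chr4:156200855-156200916, minus strand): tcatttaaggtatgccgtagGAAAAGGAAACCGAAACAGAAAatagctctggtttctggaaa
Ifit1 (chr19:34640765-34640833, plus strand): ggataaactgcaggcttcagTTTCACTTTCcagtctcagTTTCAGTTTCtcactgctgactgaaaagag
Ifit3 (chr19:34583353-34583436, plus strand): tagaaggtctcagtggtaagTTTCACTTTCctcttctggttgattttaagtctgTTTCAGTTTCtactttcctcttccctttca
Rsad2 (chr12:26456543-26456592, minus strand): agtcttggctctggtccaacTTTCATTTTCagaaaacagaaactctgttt
Oas1a (chr5:120907526-120907565, minus strand): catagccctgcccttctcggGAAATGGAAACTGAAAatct
Oas3 (chr5:120777705-120777754, minus strand): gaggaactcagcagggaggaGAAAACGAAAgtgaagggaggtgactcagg
Bst2 (chr8:71537567-71537622, minus strand): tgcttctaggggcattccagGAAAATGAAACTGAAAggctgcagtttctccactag
Ifitm2 (chr7:140955978-140956027, minus strand): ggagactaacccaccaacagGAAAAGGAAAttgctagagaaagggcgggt
Stat2 (chr10:128270256-128270305, plus strand): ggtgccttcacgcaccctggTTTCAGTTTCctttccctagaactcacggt

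The GAS letters, in capitals below, are shown for the interferon-induced factors Irf1 and Irf8 and for the immunoproteasome subunit Psmb8, whose windows held no ISRE core.
Irf1 (chr11:53769904-53769952, plus strand): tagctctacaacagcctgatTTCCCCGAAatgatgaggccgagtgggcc
Irf8 (chr8:120736167-120736233, plus strand): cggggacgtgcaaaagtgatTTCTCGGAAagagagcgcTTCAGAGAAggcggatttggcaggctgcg
Psmb8 (chr17:34198078-34198126, plus strand): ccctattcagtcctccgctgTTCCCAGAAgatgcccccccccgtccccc

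A match is a string of letters in a window and was not taken as a bound site. Many members sit in clusters of related genes, among them Ifit2, Ifit3 and Ifit1 on chromosome 19 between 34550550 and 34650009, Oas2, Oas3 and Oas1a on chromosome 5 between 120730333 and 120907544, Ifitm2, Ifitm1 and Ifitm3 on chromosome 7 between 140954837 and 141010744, and Psmb9 and Psmb8 on chromosome 17 between 34182030 and 34201454. Gbp3 and Gbp2, Oasl2 and Oasl1, Parp14 and Parp9, and Mx1 and Mx2 are neighbours in the same way. Near-identical copies can share or lose reads, so the levels of Ifit3 (beside Ifit3b), Oas1a (beside the other Oas1 genes) and the IFITM genes are uncertain to that extent. Ifit1, Irf5, Stat2, Rtp4 and Parp9 overlap another annotated gene (Ifit1bl1, Tnpo3, Apof, Masp1 and Dtx3l), and whether reads were counted by strand is not given in the sources used here. RefSeq lists Mx1 and Mx2 as transcribed pseudogenes of the C57BL/6J reference.

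The main difference was between MaSC/basal cells and the luminal cells. Most antiviral effectors and sensors were low in MaSC/basal cells, several of them at a few reads per library, while the IFITM genes were high there. Against LP cells, 26 members were lower and 6 higher in MaSC/basal cells at an adjusted p under 0.05 (edgeR quasi-likelihood F test), where 28.0% and 29.4% of all genes tested were lower and higher. Against ML cells, 23 members were lower and 5 higher, beside 29.7% and 28.9% of all genes. The median log2 fold change over the 38 members was -0.97 against LP and -1.04 against ML cells, and over all genes tested it was -0.01 in each comparison. Ifit3, Oas2, Oas3 and Mx1 are counted among those lower against LP cells, and Oas2 and Oas3 also against ML cells. These genes passed the filter only through luminal and cultured libraries, which tilts them toward lower in MaSC/basal cells. Both comparisons use the same MaSC/basal libraries. In bulk samples, fewer cells with a transcript and less RNA per cell cannot be told apart.

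**Figure D1:**
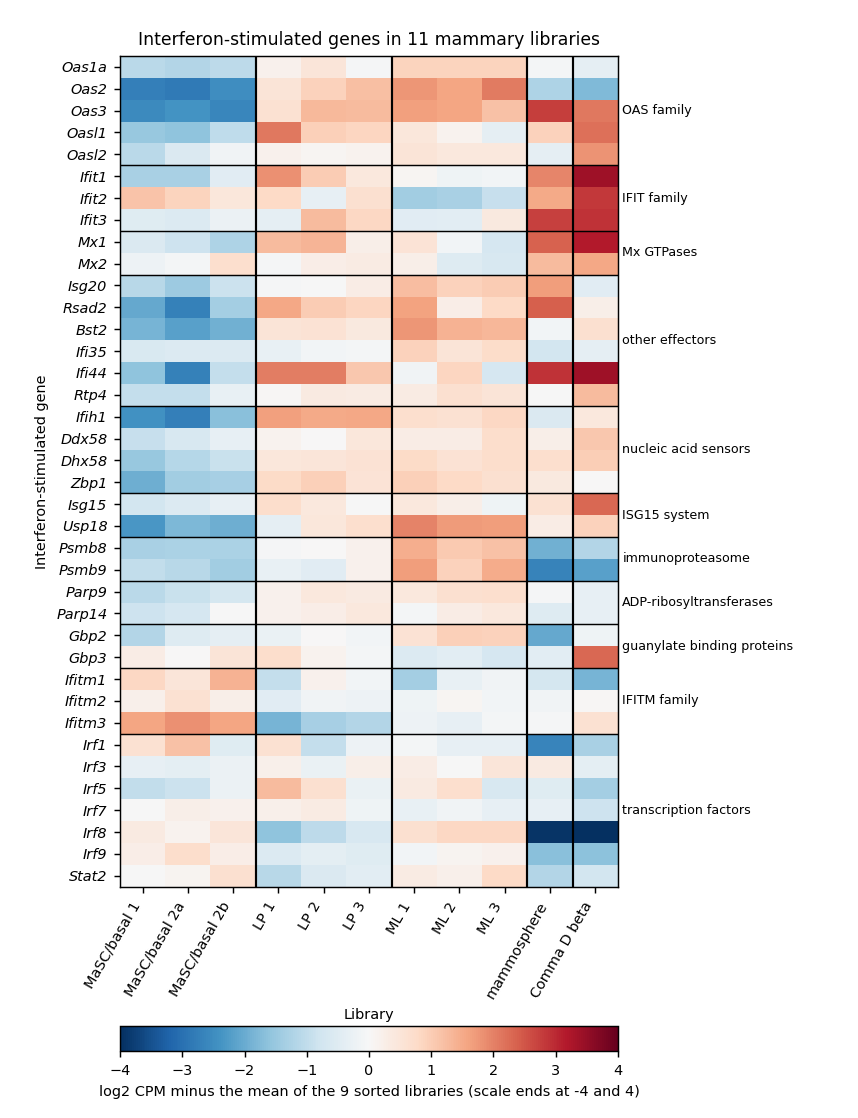
Each row is an interferon-stimulated gene, grouped by role, and each column a library. Colour gives log2 CPM minus the gene's mean over the 9 sorted libraries, from -4 (blue) to 4 (red). The OAS genes, sensors and most other effectors are blue in the 3 MaSC/basal columns and Ifitm3 is red there. In the Comma D beta column Irf8 had 0 reads, so its colour is set by the prior count.

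Interferons themselves were scarcely transcribed. Of 11 interferon genes listed, only Ifne, an epithelial type I interferon, passed the filter, and Ifnb1, Ifng, Ifnk, Ifnl2 and Ifnl3 had 19, 4, 34, 9 and 45 reads summed over the 11 libraries. Ifne stood at 1.69, 1.74 and 1.44 CPM in LP replicates 1, 2 and 3, at 0, 0 and 0.0188 CPM in MaSC/basal replicates 1, 2a and 2b, and at 0.0849, 0.186 and 0 CPM in ML replicates 1, 2 and 3. The LP libraries lay above all others, and since Ifne passed the filter through these libraries alone, no test is given. Of 14 receptor and JAK-STAT genes, 2 were higher and 8 lower in MaSC/basal than in LP cells, and 1 was higher and 8 lower than in ML cells. Of all genes tested, 29.4% were higher and 28.0% lower against LP cells, and 28.9% and 29.7% against ML cells. Ifnar1, a chain of the type I receptor, was not called in any of the 3 comparisons, with log2 fold changes of 0.26, 0.20 and -0.05. Ifnar2, its other chain, was highest in LP cells, with log2 fold changes of -0.61 (SE 0.14, adjusted p = 0.00342) for MaSC/basal against LP cells and 0.78 (SE 0.14, adjusted p = 0.00304) for LP against ML cells. Ifnlr1, the chain specific to type III interferon, had log2 fold changes of -1.52 (SE 0.24, adjusted p = 0.000347) against LP and -1.82 (SE 0.24, adjusted p = 9.56e-05) against ML cells. Socs1, an inhibitor of JAK signalling, went the opposite way with log2 fold changes of 3.52 (SE 0.21, adjusted p = 8.14e-07) against LP and 3.27 (SE 0.21, adjusted p = 9.04e-07) against ML cells. Of 11 sensing and adaptor genes tested, 2 were higher and 5 lower in MaSC/basal than in LP cells, beside the same 29.4% and 28.0% of all genes. Among the lower was Tlr3, a receptor for double-stranded RNA (-2.23, SE 0.21, adjusted p = 1.3e-05).

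All 4 nucleic acid sensors among the members were lower in MaSC/basal cells than in either luminal population. Ifih1 encodes MDA5, a cytoplasmic sensor of long double-stranded RNA. Its level was 4.45, 3.57 and 7.50 CPM in MaSC/basal replicates 1, 2a and 2b, 73.8, 68.9 and 69.6 CPM in LP replicates 1 to 3 and 37.8, 36.7 and 42.7 CPM in ML replicates 1 to 3. The groups did not overlap, and the LP libraries were the highest. The log2 fold change of MaSC/basal cells was -3.77 (SE 0.25, adjusted p = 1.45e-06) against LP and -2.92 (SE 0.25, adjusted p = 5.04e-06) against ML cells. Ddx58, which encodes RIG-I, was a much more even gene, at 31.5 to 47.2 CPM in MaSC/basal, 59.6 to 81.4 CPM in LP and 72.4 to 96.3 CPM in ML libraries, 1.76-fold lower in MaSC/basal than in LP cells (adjusted p = 0.00412). Dhx58, encoding the related helicase LGP2, was 3.23-fold lower (adjusted p = 5.72e-05), and Zbp1, a sensor of Z-form nucleic acid, 5.03-fold lower (adjusted p = 1.68e-05) in MaSC/basal than in LP cells, and they were 3.65-fold and 5.18-fold lower than in ML cells. Dhx58 lay at 1.92 to 3.00 CPM in MaSC/basal and at 7.69 to 9.504 CPM in luminal libraries, and Zbp1 at 1.31 to 2.07 CPM and 7.69 to 10.2 CPM.

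The OAS genes encode synthetases of 2'-5' oligoadenylate, which activates RNase L, and related proteins without that activity. All 5 members of the family were lower in MaSC/basal cells in both comparisons. Oas2 was at 0.339, 0.319 and 0.415 CPM in the MaSC/basal libraries (in the order of the replicates, as in all following sentences), 3.63, 4.87 and 5.93 CPM in the LP libraries and 8.80, 7.72 and 10.9 CPM in the ML libraries. These MaSC/basal values rest on 20, 16 and 22 reads. Oas3 was at 0.119, 0.140 and 0.113 CPM in MaSC/basal cells, which are 7, 7 and 6 reads, at 1.45, 2.34 and 2.30 CPM in LP cells and at 2.97, 2.88 and 2.14 CPM in ML cells. For both genes every luminal library exceeded every MaSC/basal library several times over. The log2 fold change of Oas3 was -4.01 (SE 0.33) against LP and -4.41 (SE 0.33) against ML cells. That of Oas2 was -3.73 (SE 0.28) and -4.66 (SE 0.29). Both genes passed the filter through luminal and cultured libraries alone, so no p is given for these comparisons. Oasl1 stood at 0.780, 0.718 and 1.11 CPM in MaSC/basal, 10.2, 4.51 and 4.27 CPM in LP and 3.17, 2.55 and 1.78 CPM in ML libraries. Here LP cells were the highest, with replicate 1 above the other LP libraries, and the log2 fold change of MaSC/basal cells was -2.86 (SE 0.40, adjusted p = 0.000172) against LP and -1.53 (SE 0.39, adjusted p = 0.00687) against ML cells. Oas1a (1.77 to 1.94 CPM in MaSC/basal cells) and Oasl2 (5.497 to 10.5 CPM) were 2.54-fold and 1.61-fold lower than in LP cells. The call of Oasl2 against LP cells was lost without MaSC/basal replicate 1 or 2a (adjusted p = 0.0517 to 0.0540).

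**Figure D2:**
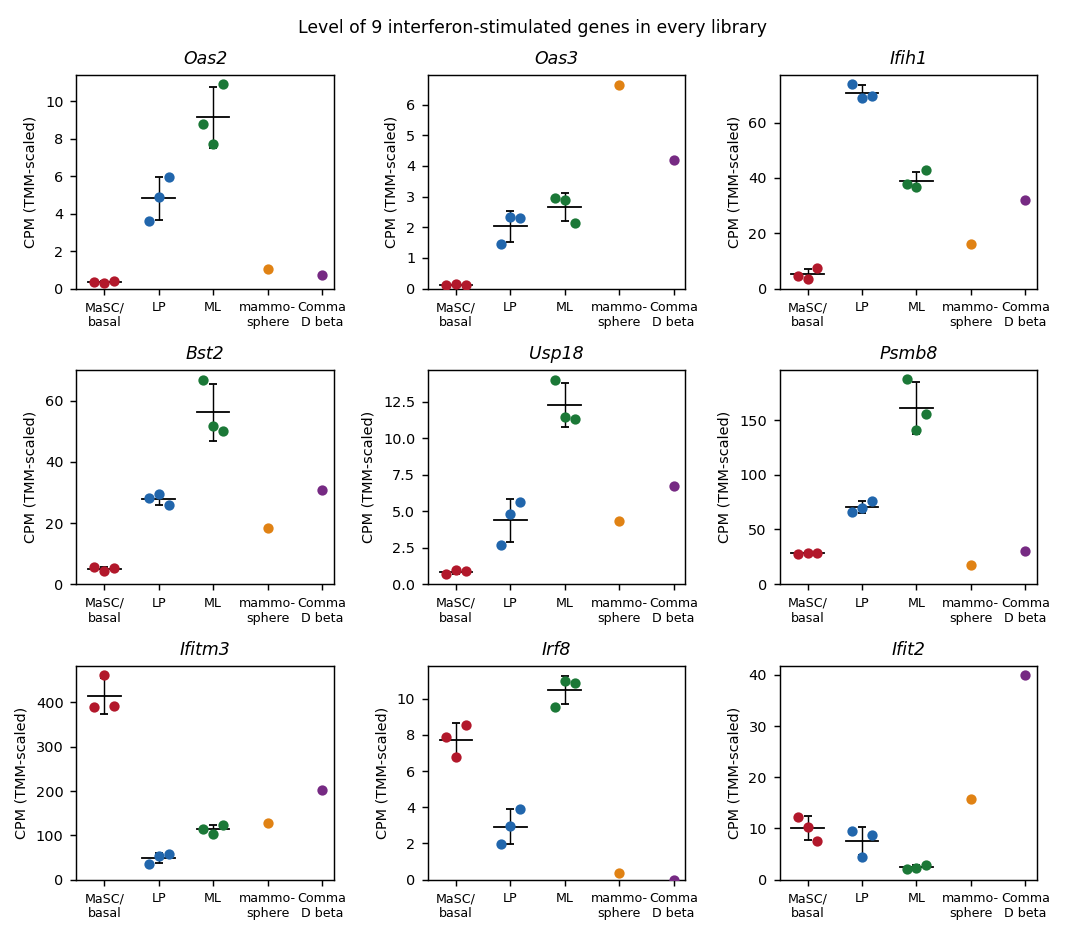
TMM-scaled CPM of 9 interferon-stimulated genes in every library. Points are libraries, the horizontal line and bar are the mean and SD of the 3 libraries of a sorted population, and the cultured samples have 1 library each. Oas2, Oas3, Ifih1, Bst2, Usp18 and Psmb8 have their lowest sorted values in MaSC/basal cells, Ifitm3 its highest, and Irf8 is near 0 in the cultured libraries.

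Among the other effectors, all 6 were lower in MaSC/basal cells in both comparisons. Bst2, tetherin, which holds budding virus at the cell surface, was at 5.46, 4.37 and 5.22 CPM in MaSC/basal, 28.1, 29.5 and 25.9 CPM in LP and 67.0, 51.6 and 50.2 CPM in ML libraries. The libraries of each population were close to each other and the 3 populations separated. Its log2 fold change was -2.47 (SE 0.16, adjusted p = 1.21e-06) against LP and -3.49 (SE 0.17, adjusted p = 2.23e-07) against ML cells. Rsad2, viperin, an enzyme that makes a chain-terminating nucleotide, stood at 0.882, 0.538 and 1.43 CPM in MaSC/basal, 11.1, 7.6 and 6.94 CPM in LP and 11.7, 4.57 and 6.52 CPM in ML libraries. The luminal populations overlapped, and both lay above MaSC/basal cells, by log2 fold changes of -3.16 (SE 0.44, adjusted p = 0.000169) and -2.99 (SE 0.44, adjusted p = 0.000218). Ifi44 was at 0.645, 0.279 and 1.04 CPM in MaSC/basal, 8.64, 8.61 and 4.43 CPM in LP and 1.87, 3.79 and 1.28 CPM in ML libraries. Its groups did not overlap, but its spread within populations was wide. The log2 fold change was -3.47 (SE 0.53, adjusted p = 0.000312) against LP and -1.85 (SE 0.52, adjusted p = 0.0107) against ML cells, the latter lost without ML replicate 2 (adjusted p = 0.0522). Isg20, an exonuclease, was 2.31-fold lower in MaSC/basal than in LP cells and 4.54-fold lower than in ML cells, and Rtp4 1.95-fold and 2.32-fold lower. Isg20 lay at 6.96 to 10.7 CPM in MaSC/basal, 18.7 to 23.7 CPM in LP and 36.5 to 45.0 CPM in ML libraries, and Rtp4 at 3.97 to 6.33 CPM, 8.04 to 10.1 CPM and 9.87 to 12.1 CPM. Ifi35 was 1.34-fold lower than in LP cells (adjusted p = 0.0233), a call that was lost with library batch as a block (adjusted p = 0.0502), with library totals in place of TMM and without MaSC/basal replicate 1 or 2a or LP replicate 2 or 3, and 2.49-fold lower than in ML cells, with 19.5 to 20.6 CPM in MaSC/basal, 24.4 to 28.1 CPM in LP and 43.3 to 57.4 CPM in ML libraries.

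Usp18, the protease that removes ISG15 from proteins and also restrains the type I receptor, was at 0.662, 0.977 and 0.867 CPM in MaSC/basal, 2.72, 4.79 and 5.61 CPM in LP and 14, 11.5 and 11.3 CPM in ML libraries. No 2 populations overlapped. The log2 fold change of MaSC/basal cells was -2.38 (SE 0.30, adjusted p = 8.12e-05) against LP and -3.87 (SE 0.31, adjusted p = 3.52e-06) against ML cells. Isg15 itself, the ubiquitin-like modifier, differed less, at 3.51 to 4.71 CPM in MaSC/basal, 5.82 to 9.70 CPM in LP and 5.20 to 7.92 CPM in ML libraries. It was 1.91-fold lower than in LP cells (adjusted p = 0.00734) and 1.64-fold lower than in ML cells (adjusted p = 0.0258), the latter call being lost without MaSC/basal replicate 1 or 2a or ML replicate 1 or 2.

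The immunoproteasome subunits Psmb8 and Psmb9 followed the order MaSC/basal, LP, ML. Psmb8 was at 28.0, 28.5 and 28.5 CPM in MaSC/basal, 66.2, 69.4 and 76.3 CPM in LP and 187, 141 and 155 CPM in ML libraries, and Psmb9 at 10.6, 9.59 and 8.01 CPM, 16.9, 15.3 and 23.5 CPM and 66.0, 39.8 and 58.0 CPM. Neither gene had overlapping populations. Against ML cells the log2 fold change of MaSC/basal cells was -2.51 (SE 0.14, adjusted p = 3.86e-07) for Psmb8 and -2.54 (SE 0.24, adjusted p = 9.97e-06) for Psmb9, and against LP cells it was -1.32 (SE 0.13, adjusted p = 1.7e-05) and -0.98 (SE 0.23, adjusted p = 0.00438). The ADP-ribosyltransferase genes Parp9 and Parp14 were 2.31-fold and 1.68-fold lower in MaSC/basal than in LP cells and 2.77-fold and 1.61-fold lower than in ML cells, and both calls of Parp14 were lost without MaSC/basal replicate 1 or 2a, that against ML also without ML replicate 3. Of the guanylate binding proteins, Gbp2 was 1.44-fold lower than in LP cells (adjusted p = 0.0482, lost without MaSC/basal replicate 1 or 2a, LP replicate 2 or 3, or ML replicate 2 or 3, and with library totals alone) and 2.76-fold lower than in ML cells (adjusted p = 0.000161), whereas Gbp3 had a log2 fold change of -0.01 against LP and was 1.79-fold higher than in ML cells (adjusted p = 0.0113). Gbp2 lay at 25.2 to 44.4 CPM in MaSC/basal, 47.0 to 57.7 CPM in LP and 84.9 to 109 CPM in ML libraries, and Gbp3 at 5.38 to 7.67 CPM, 5.07 to 8.64 CPM and 3.33 to 3.92 CPM.

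The IFIT genes, which encode binders of foreign RNA ends, did not move as a group. Ifit1 was at 1.32, 1.32 and 2.43 CPM in MaSC/basal, 11.9, 6.76 and 4.49 CPM in LP and 3.56, 2.96 and 3.10 CPM in ML libraries. Its log2 fold change was -2.19 (SE 0.37, adjusted p = 0.000603) against LP cells. Against ML cells it was -0.92 (SE 0.37, adjusted p = 0.0520), with adjusted p = 0.0442 when library batch was a block. Ifit2 ran the other way, at 12.2, 10.3 and 7.57 CPM in MaSC/basal, 9.59, 4.40 and 8.71 CPM in LP and 2.09, 2.23 and 2.92 CPM in ML libraries. MaSC/basal and LP cells overlapped, and both lay above ML cells. The log2 fold change of MaSC/basal against ML cells was 2.07 (SE 0.31, adjusted p = 0.000277). Ifit3 was low in all sorted cells (11 to 70 reads per library), at 0.356, 0.339 and 0.433 CPM in MaSC/basal, 0.388, 1.31 and 0.961 CPM in LP and 0.368, 0.372 and 0.684 CPM in ML libraries. The populations overlapped, and its log2 fold change against LP cells was -1.26 (SE 0.44). Its call there was lost with limma voom and with library totals alone. It was also lost without any one of MaSC/basal replicates 1, 2a and 2b and LP replicates 2 and 3. Ifit3 passed the filter through luminal and cultured libraries alone, so no p is given for this comparison.

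Of the dynamin-like Mx GTPases, Mx1 was at 0.441, 0.359 and 0.264 CPM in MaSC/basal, 1.69, 1.83 and 0.801 CPM in LP and 1.02, 0.625 and 0.410 CPM in ML libraries. Its log2 fold change was -2.04 (SE 0.42) against LP cells. Against ML cells, whose libraries overlapped those of MaSC/basal cells, it was -0.96 (SE 0.43) and not called, though a call was reached with batch as a block. Mx1 passed the filter through luminal and cultured libraries alone, so no p is given for these comparisons. Mx2 was not called in any comparison, with levels of 2.39 to 4.43 CPM in MaSC/basal, 2.68 to 3.47 CPM in LP and 1.78 to 3.25 CPM in ML libraries.

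The IFITM genes, which encode membrane proteins that block viral entry, were higher in MaSC/basal cells in both comparisons, all 3 of them. Ifitm3 was at 389, 462 and 393 CPM in MaSC/basal, 36.4, 52.9 and 58.3 CPM in LP and 114, 104 and 124 CPM in ML libraries. It was the member with the most reads per length in MaSC/basal cells, at 639.8 CPM per kb, and every MaSC/basal library was above every luminal library. The log2 fold change was 3.07 (SE 0.19, adjusted p = 9.96e-07) against LP and 1.86 (SE 0.18, adjusted p = 1.47e-05) against ML cells. Ifitm1 was much lower, at 1.58, 1.22 and 2.36 CPM in MaSC/basal, 0.423, 0.973 and 0.801 CPM in LP and 0.311, 0.691 and 0.775 CPM in ML libraries. Its log2 fold change was 1.21 (SE 0.43, adjusted p = 0.0358) against LP cells, lost without MaSC/basal replicate 1 or 2b or LP replicate 1 or 3, and 1.54 (SE 0.44, adjusted p = 0.0119) against ML cells. Ifitm2 was 1.54-fold higher than in LP (adjusted p = 0.00631) and 1.34-fold higher than in ML cells (adjusted p = 0.0390), the latter lost with library totals alone, with other filters on low counts and without MaSC/basal replicate 2a, LP replicate 3 or ML replicate 1 or 3. Its libraries spanned 148 to 198 CPM in MaSC/basal, 93.8 to 117 CPM in LP and 115 to 138 CPM in ML cells. The endothelial genes Pecam1, Cdh5, Kdr, Tek, Esam, Emcn and Eng, none of which was at 0 in a sorted population, summed to 97.4 to 167 CPM in MaSC/basal, 21.97 to 47.8 CPM in LP and 72.7 to 97.4 CPM in ML libraries. Of the 7, 6 were higher in MaSC/basal than in LP cells and 3 than in ML cells, beside 29.4% and 28.9% of all genes. Eng alone gave 41.0 to 64.3 CPM of the ML sums. It was at 40.0 to 63.7 CPM in MaSC/basal libraries and was not called between these populations (log2 fold change -0.09). The part of other cell types in the IFITM values was not tested.

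Of the 7 transcription factors, 3 were higher in MaSC/basal than in LP cells (Irf8, Irf9 and Stat2) and 1 lower (Irf5), and against ML cells only Irf3 was called, 1.49-fold lower (adjusted p = 0.0148, lost without MaSC/basal replicate 2a or ML replicate 3). These counts stand beside 29.4% of all genes higher and 28.0% lower against LP cells, and 28.9% and 29.7% against ML cells. Irf9, the DNA-binding subunit of the complex that acts on the ISRE, was at 94.98, 131 and 96.2 CPM in MaSC/basal, 54.8, 60.6 and 56.7 CPM in LP and 74.4, 86.0 and 88.9 CPM in ML libraries. The 3 populations did not overlap, and the log2 fold change of MaSC/basal cells was 0.90 (SE 0.15, adjusted p = 0.000509) against LP and 0.37 (SE 0.15, adjusted p = 0.0539) against ML cells, where it was called with DESeq2 (adjusted p = 0.0336). Stat2, its partner, was 1.92-fold higher than in LP cells (adjusted p = 0.00658), and its log2 fold change against ML cells was -0.21 (adjusted p = 0.472), with 68.7 to 107 CPM in MaSC/basal, 32.2 to 51.3 CPM in LP and 80.3 to 121 CPM in ML libraries.

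Irf8, a factor best known from myeloid and B cells, was at 7.87, 6.78 and 8.55 CPM in MaSC/basal, 1.97, 2.94 and 3.90 CPM in LP and 9.56, 10.96 and 10.9 CPM in ML libraries. LP cells were the lowest without overlap, and MaSC/basal cells exceeded them by 1.41 log2 units (SE 0.25, adjusted p = 0.000849). The 16 leukocyte markers summed to 27.1 to 40.7 CPM in MaSC/basal, 22.1 to 32.7 CPM in LP and 10.975 to 21.5 CPM in ML libraries, of which Cd68 alone gave 4.94 to 5.97 CPM, 12.3 to 19.7 CPM and 4.81 to 6.31 CPM. Of the 9 tested, 4 (Coro1a, Cd79a, H2-Ab1 and Cd74) were higher and 1 (Cd68) lower in MaSC/basal than in LP cells, beside 29.4% and 28.0% of all genes. Cd74 was at 11.7 to 20.5 CPM in MaSC/basal, 4.44 to 7.48 CPM in LP and 1.73 to 6.06 CPM in ML libraries. Cd68 alone was higher in LP than in ML cells, where 14.3% of all genes were. Cd3d was among the markers with 0 reads in all LP libraries, and no leukocyte marker was at 0 throughout MaSC/basal or ML cells. The part of leukocytes in the Irf8 values was not tested. Irf1 was at 322, 482 and 151 CPM in MaSC/basal, 323, 110.1 and 187 CPM in LP and 203, 169 and 171 CPM in ML libraries. It was abundant and variable, with overlapping populations and no call, though leaving out MaSC/basal replicate 2b gave an adjusted p of 0.0292 against ML cells. Irf5 was at 2.73, 2.97 and 4.62 CPM in MaSC/basal, 13.1, 8.52 and 4.43 CPM in LP and 6.99, 8.65 and 3.42 CPM in ML libraries. Within both luminal populations replicate 3 was the lowest. Its call against LP cells (log2 fold change -1.34, SE 0.44, adjusted p = 0.0232) was lost without MaSC/basal replicate 1 or 2a or LP replicate 1, and against ML cells it was called with batch as a block (adjusted p = 0.00723) and not without (adjusted p = 0.0988). Irf7, which drives type I interferon genes, lay between 13.1 and 20.6 CPM in all sorted libraries and was not called with edgeR on all libraries. MaSC/basal cells were called higher than ML cells with the DESeq2 Wald test (adjusted p = 0.0369) and with edgeR without LP replicate 3 (adjusted p = 0.0457). Without that library LP cells were also called higher than ML cells (adjusted p = 0.0419).

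**Figure D3:**
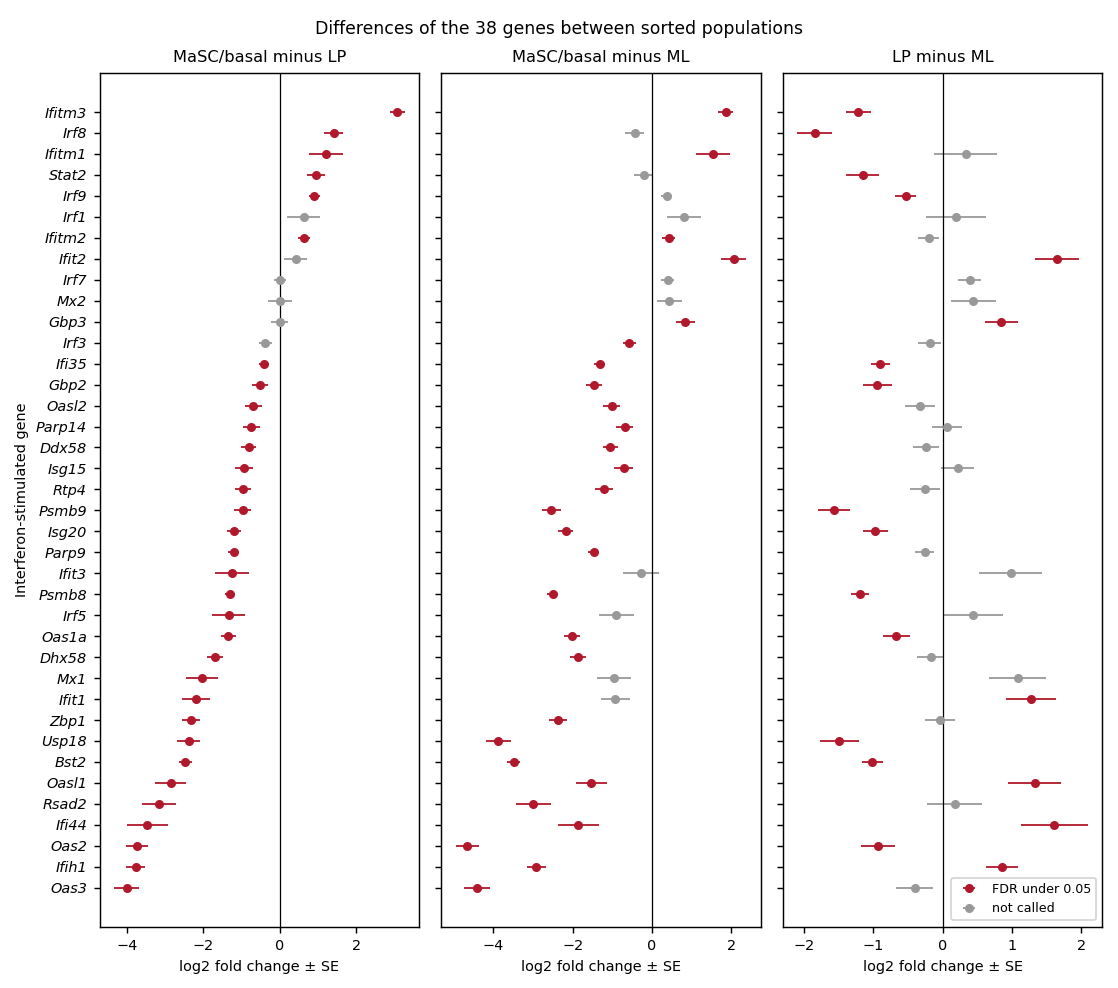
Log2 fold changes of the 38 genes with their SE in the 3 comparisons of sorted populations, ordered by the first. Red points had an adjusted p under 0.05 in the edgeR test. Oas3, Ifih1 and Oas2 lie lowest and Ifitm3 highest in the first panel, and the values of LP minus ML lie on both sides of 0.

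Between the luminal populations members were called in both directions. In LP against ML cells, 6 members were higher, which is 15.8% of them and near the 14.3% of all genes. Another 13 were lower, which is 34.2% beside 17.5% of all genes. The median log2 fold change was -0.19 for the members and -0.01 for all genes tested. Higher in ML cells were Irf8, Psmb9, Usp18, Ifitm3, Psmb8, Stat2, Bst2, Isg20, Gbp2, Oas2, Ifi35, Oas1a and Irf9. Higher in LP cells were Ifit2, Ifi44, Oasl1, Ifit1, Ifih1 and Gbp3. With the values given above, the log2 fold change of LP against ML cells was -1.84 (SE 0.25, adjusted p = 0.00112) for Irf8, -1.56 (SE 0.23, adjusted p = 0.00143) for Psmb9, -1.49 (SE 0.28, adjusted p = 0.00391) for Usp18 and -1.21 (SE 0.18, adjusted p = 0.00151) for Ifitm3. In the other direction it was 1.65 (SE 0.32, adjusted p = 0.00436) for Ifit2, 1.61 (SE 0.48, adjusted p = 0.0300) for Ifi44, 1.33 (SE 0.38, adjusted p = 0.0240) for Oasl1 and 1.27 (SE 0.36, adjusted p = 0.0242) for Ifit1.

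The genes higher in LP cells rested more on single libraries. Their number fell from 6 to 3 without LP replicate 1, to 3 without ML replicate 1 and to 2 without ML replicate 3, while the range over all leave-one-out fits was 2 to 8. Ifi44 lost its call in 4 of these fits, without LP replicate 1 or 2 or ML replicate 1 or 3 (adjusted p = 0.0772 to 0.102), Ifit1 in 4, without LP replicate 1 or ML replicate 1, 2 or 3 (0.0556 to 0.0830), Oasl1 in 3, without LP replicate 1 or ML replicate 2 or 3 (0.0511 to 0.0842), Gbp3 in 3, without LP replicate 1 or ML replicate 1 or 3, and Ifih1 in 1, without ML replicate 1 (0.0596). Ifit2 kept its call in every fit. Of the genes higher in ML cells, Oas1a lost its call in 5 fits (adjusted p up to 0.0993), Irf9 in 4 (up to 0.0790) and Oas2 in 3 (up to 0.0696), and each of these genes lost it without LP replicate 1 and without ML replicate 3. Irf8, Psmb9, Usp18, Ifitm3, Psmb8, Stat2, Bst2, Isg20, Gbp2 and Ifi35 were called under every alternative tried.

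LP and ML were sequenced once in each of the 3 library batches, which allows the difference to be read within a batch. The 19 members were called on these same libraries, and their LP and ML libraries do not overlap. The share of all genes without overlap was not computed, so this is no separate result. It also fixes the sign within each batch, so only the sizes are informative. Within batches the difference ranged in size from 0.53 to 2.18 on the log2 scale for the genes higher in LP and from 0.39 to 2.35 for those higher in ML cells.

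**Figure D4:**
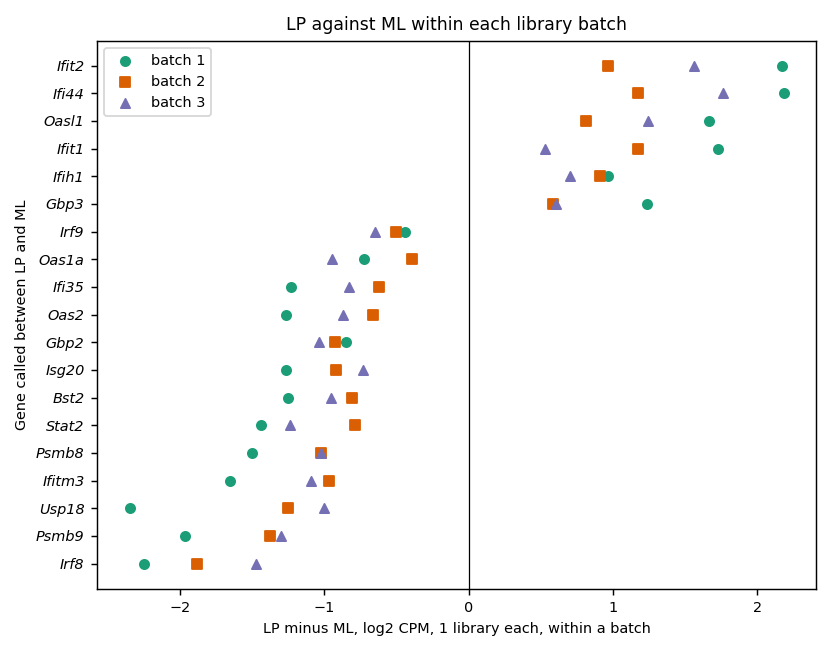
For the 19 members called between LP and ML cells, each point is the LP library minus the ML library of the same batch in log2 CPM. The genes were called on these same libraries, so that each keeps to 1 side of 0 is no separate result. The sizes run from 0.39 to 2.35.

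Batch itself was tested by adding it to the model. No member was called for the batch term with edgeR (4 at an unadjusted p under 0.05, which were Irf5, Mx1, Gbp2 and Psmb9), where 0.454% of all genes were called and 2399 of 15422 had an unadjusted p under 0.05. With limma voom none was called either (4 unadjusted, beside 2316 of all genes). A library departed from both others of its population by more than 1 log2 unit in 7 of the 38 members, and 16.6% of all genes tested had such a departure. Oasl1 was high in LP replicate 1 and Ifit3 low in it, by 1.16 and 1.21 log2 units from the nearest LP library. Irf1 was low in MaSC/basal replicate 2b (1.09) and Ifi44 in MaSC/basal replicate 2a (1.09). Mx1 was low in LP replicate 3 (1.04), Ifitm1 in ML replicate 1 (1.04) and Irf5 in ML replicate 3 (1.02). Ifi44 was also high in ML replicate 2 (1.00), the ML library with the most Elf5, and the part of progenitor cells in that value was not tested. The departures were spread over 7 of the 9 sorted libraries, with LP replicate 1 holding 2.

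The cultured cells were compared with the MaSC/basal mean in single libraries, so no test was made, and a member was counted when it lay more than 2 log2 units away and outside the range of the 3 MaSC/basal libraries. In the mammosphere library 9 members were higher (8.26% of all genes) and 3 lower (8.35%), and in the Comma D beta library 16 were higher (5.10%) and 3 lower (14.6%). The same 3 MaSC/basal libraries serve both comparisons. Ifit3, Oas3 and Mx1 are counted among the higher in each cultured library. They exceeded 0.5 CPM in no MaSC/basal library and passed the filter through luminal and cultured libraries, which tilts them toward higher in culture. The median difference over the members was 0.78 log2 units in mammospheres and 1.16 in Comma D beta cells, against -0.01 and 0.02 over all genes tested. The mammosphere library shares batch 1 with MaSC/basal replicate 1, and in these libraries Oas3 stood at 6.65 and 0.119 CPM, Ifi44 at 15.4 and 0.645 CPM and Irf8 at 0.361 and 7.87 CPM. No MaSC/basal library was in the batch of the Comma D beta library, where culture, batch, strain and stage cannot be told apart.

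In the mammosphere library 9 members lay above and 9 below all sorted libraries, where 19.8% and 19.3% of all genes did. In the Comma D beta library 14 lay above and 8 below, where 26.7% and 27.1% of all genes did. A place beyond the sorted libraries was thus common among all genes. Several of the higher members had few reads in MaSC/basal cells. Oas3, at a MaSC/basal mean of 0.124 CPM, was at 6.65 CPM in mammospheres (295 reads) and 4.19 CPM in Comma D beta cells (123 reads), above all 9 sorted libraries in each. Ifi44, with a MaSC/basal mean of 0.653 CPM, was at 15.4 and 21.9 CPM, also above all sorted libraries. Rsad2 was at 19.96 CPM in mammospheres, above every sorted library, and at 4.43 CPM in Comma D beta cells, below every luminal library. These are differences of 5.30 and 4.64 log2 units for Oas3, 4.63 and 5.14 for Ifi44, and 4.43 and 2.27 for Rsad2, each time mammospheres first. Ifit1 was at 13.2 CPM in mammospheres and 35.3 CPM in Comma D beta cells, Ifit3 at 3.68 and 4.12 CPM, and Mx1 at 3.70 and 6.50 CPM, all above the 9 sorted libraries. Oasl1 reached 4.46 CPM in mammospheres, within the luminal range, and 10.8 CPM in Comma D beta cells, above it. Usp18 was at 4.33 and 6.74 CPM, within the luminal range. Isg20 was past the limit in mammospheres (62.2 CPM), with 14.1 CPM in Comma D beta cells. In the Comma D beta library Ifit2 (39.9 CPM), Isg15 (29.0 CPM), Oasl2 (40.7 CPM), Ifih1 (32.1 CPM), Dhx58 (11.3 CPM), Bst2 (30.8 CPM), Rtp4 (18.9 CPM) and Gbp3 (26.2 CPM) were also past it, and in mammospheres these stood at 15.7, 9.13, 9.15, 16.0, 8.88, 18.5, 7.67 and 3.99 CPM. The 5 luminal markers summed to 3162 CPM in mammospheres and 211 CPM in Comma D beta cells, against 1402 to 1692 CPM in MaSC/basal cells. The 6 fibroblast markers summed to 2411 CPM in mammospheres and 3670 CPM in Comma D beta cells, against 582 to 864 CPM in MaSC/basal cells. Of these, Col1a1 was at 838 and 809 CPM against 87.4 to 144 CPM in MaSC/basal cells, while Dcn was at 98.6 and 91.5 CPM against 162 to 204 CPM. The part of these cell states in the values was not tested.

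The lower members were transcription factors and Ifitm1. Being 3 of the 38 in each library, they were no larger a share than the 8.35% (mammospheres) and 14.6% (Comma D beta cells) of all genes. Irf8 had 16 reads in mammospheres (0.361 CPM) and 0 reads in Comma D beta cells, which against a floor of 3 reads in that library is at least 75.7-fold lower than the MaSC/basal mean of 7.74 CPM. Irf9 was at 24.98 and 25.5 CPM, 2.08 and 2.05 log2 units below the MaSC/basal mean. Irf1 was at 33.8 CPM in mammospheres, 3.08 log2 units lower, and at 86.7 CPM in Comma D beta cells, 1.72 lower. Ifitm1 had 0.519 CPM in mammospheres and 0.204 CPM in Comma D beta cells, 2.76 log2 units lower in the latter. Among members within the limit, Irf7 was at 13.0 CPM in mammospheres and 9.19 CPM in Comma D beta cells, and Psmb9 at 3.25 and 4.63 CPM, below every sorted library. Oas2, by contrast with Oas3, stayed low in culture, at 1.06 and 0.715 CPM, below every luminal library. The leukocyte markers summed to 35.4 CPM in mammospheres, within the MaSC/basal range, but their make-up differed. Cd68 gave 23.6 CPM of the mammosphere sum, against 4.94 to 5.97 CPM in MaSC/basal libraries. Cd74 was at 0.451 CPM in mammospheres, against 11.7 to 20.5 CPM. In Comma D beta cells the markers summed to 4.80 CPM, and 7 of the 16, Cd52, Laptm5 and Tyrobp among them, had 0 reads. The part of leukocytes in the cultured values was not tested.

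**Figure D5:**
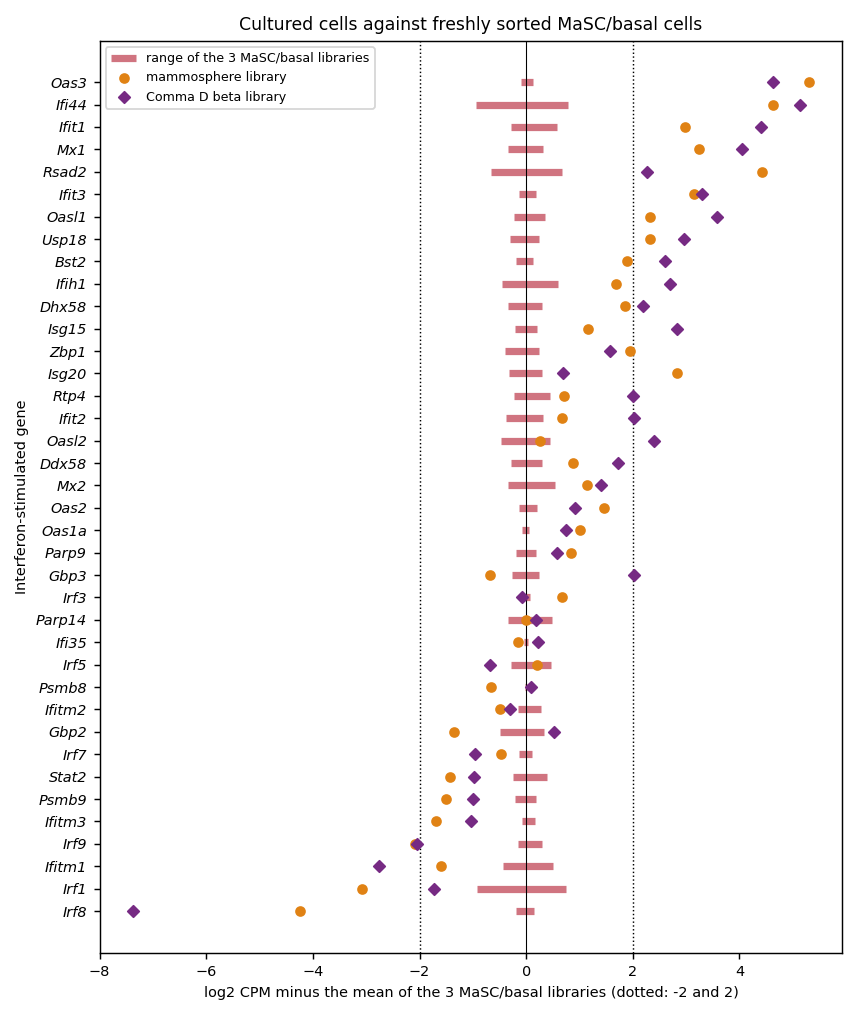
Log2 CPM of the mammosphere library (orange circles) and of the Comma D beta library (purple diamonds) minus the MaSC/basal mean, with the range of the 3 MaSC/basal libraries as a bar and dotted lines at -2 and 2. Oas3 and Ifi44 lie highest in both, and Irf8 lowest. The Comma D beta point of Irf8 stands for 0 reads, so its place depends on the prior count.

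The levels per length show how unevenly the members were transcribed. In MaSC/basal cells Ifitm3, Ifitm2 and Irf1 led with 639.8, 265 and 94.8 CPM per kb, and Oas3, Oas2 and Mx1 were last with 0.0262, 0.0926 and 0.131 CPM per kb. In LP cells Ifitm2 led with 172 CPM per kb, before Ifitm3 (75.95), Irf1 (61.5) and Psmb8 (57.7). In ML cells Ifitm2 (198) and Ifitm3 (176) were followed by Psmb8 (132), Bst2 (73.2) and Psmb9 (67.8). Psmb8 and Bst2 stood at 23.2 and 6.52 CPM per kb in MaSC/basal cells.

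Other interferon-induced genes from a list of 48, of which 44 were tested, moved in both directions. Against LP cells 11 were higher and 18 lower in MaSC/basal cells, against ML cells 5 and 18, and in LP against ML cells 3 were higher and 11 lower, to be read beside the shares of all genes given for each comparison above. Epsti1 (0.399 to 0.471 CPM in MaSC/basal libraries) is counted as lower in both MaSC/basal comparisons, and Ifit3b (0.0399 to 0.204 CPM) as lower against LP cells. Both passed the filter only through luminal and cultured libraries, which tilts them toward lower in MaSC/basal cells. Another gene lower in MaSC/basal cells was Trim30a (log2 fold change -3.23 against LP cells, SE 0.33, adjusted p = 2.17e-05). Among those higher were Nlrc5, an activator of MHC class I genes (2.42, SE 0.53, adjusted p = 0.00283), and the immunity-related GTPase gene Irgm1 (2.09, SE 0.40, adjusted p = 0.00122). Nlrc5 was at 42.0, 36.4 and 158 CPM in MaSC/basal replicates 1, 2a and 2b, with replicate 2b far above the others, and at 10.5 to 18.7 CPM in LP libraries. The subunits of the peptide transporter differed from each other. Tap2 had the order of the immunoproteasome genes, at 44.2 to 49.2 CPM in MaSC/basal, 129 to 138 CPM in LP and 244 to 327 CPM in ML libraries, whereas Tap1 was at 69.9 to 86.6 CPM in MaSC/basal, 42.8 to 51.8 CPM in LP and 75.6 to 89.8 CPM in ML libraries, higher in MaSC/basal than in LP cells (log2 fold change 0.73, SE 0.14, adjusted p = 0.00112) and not called against ML cells (-0.03). Among the members themselves, the calls fell on both sides of the promoter motif: of the 14 with an ISRE core, 10 were lower and 3 higher in MaSC/basal than in LP cells, and of the 15 with a window but no core, 8 were lower and 3 higher.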

How the data were processed

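RNA-seq counts of 11 libraries were analysed. Single-end reads had been mapped by the authors to mm10 (GRCm38) with Rsubread and summarised over Entrez genes with featureCounts, and the authors deposited raw counts per gene with the gene's exon length in bases. The submitters' processing notes also name CASAVA 1.8.0, edgeR 3.6.2 and limma 3.20.5. The counts are unscaled, and how reads of several genes were handled is not given in the sources used here. Samples were grouped by their labels. The members, the lists of pathway and marker genes and the tests were chosen with earlier results of these data known.

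All fits were made in R 4.3.3. A gene entered when 3 or more libraries exceeded 0.5 CPM. After TMM scaling, edgeR 4.0.16 fitted the quasi-likelihood model on all 11 libraries together, with a separate mean per sample type (5 in all). P-values were adjusted by the Benjamini-Hochberg method over all 15422 genes tested, and calls are at an adjusted p under 0.05. SE is the size of the log2 fold change divided by the square root of F. CPM are TMM-scaled, and a prior count of 2 entered their logarithms. Values in every library are given for the 8 largest called differences of each comparison, for members with a library more than 1 log2 unit from both others, and for the 6 largest each way past 2 log2 units in each cultured library. Genes outside the 38 come from the fixed lists, and those named with values were picked after their values were seen. Some listed genes are not reported here.

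The labels' library batch pairs the libraries. After removal of population means, the correlation across genes was -0.118 to 0.526 for the 9 pairs of libraries from 1 batch and -0.419 to 0.114 for the 18 pairs from different batches. Alternatives were DESeq2 1.42.0 size factors and its Wald test, library totals without TMM, other filters, limma voom (limma 3.58.1), the 9 sorted libraries alone, batch as a replicate block, and leaving out each sorted library. The fits were tested on simulated data. At 0.5 CPM the shallowest library has 9.36 reads and the deepest 37.6. The floor of 3 reads allows for counting error alone, because reads lacking molecular identifiers may be copies of 1 molecule.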

Additional observations from a re-analysis of the deposited data

How the results depend on the processing

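Over 8 other fits and 9 that left out 1 sorted library each, no called member changed direction. In all of these 17 fits, 25 of the 32 calls between MaSC/basal and LP cells, 23 of the 28 between MaSC/basal and ML cells and 11 of the 19 between LP and ML cells kept their call. The number of members higher in LP than in ML cells ranged from 2 to 8 when a library was left out. All other counts of called members stayed within 1.5 times the reported count. With library batch as a replicate block, 25 members were lower and 6 higher in MaSC/basal than in LP cells, 26 and 5 against ML cells, and 7 were higher and 13 lower in LP than in ML cells. The block took the call from Ifi35 (MaSC/basal against LP) and added calls for Ifit1, Irf5 and Mx1 (MaSC/basal against ML) and for Mx1 (LP against ML, adjusted p = 0.0173). It changed no other call.

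With library totals alone the median of all genes moved to 0.14 for MaSC/basal against LP cells and to -0.19 for LP against ML cells, and the medians of the members were -0.83 and -0.36. With a limit of 1 log2 unit in place of 2, 17 members were higher and 8 lower in mammospheres, and 6 were lower in Comma D beta cells. With a prior count of 5 only 4 members had a departing library, since Mx1, Ifi44 and Ifitm1 no longer did. Adjusted p of Ifi44, Oasl1 and Ifit1 between LP and ML cells rose above 0.05 in 3 or 4 leave-one-out fits each, and the other differences among the 8 largest of a comparison kept their calls in all fits. Members under 0.5 CPM in MaSC/basal cells rest on few reads there, and values of the cultured samples have no replicate.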
